A study of Sus scrofa with 5 samples.

Results

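WNT5A fibroblasts of the piglet cecum were examined in single-cell RNA-seq libraries taken between birth and weaning age. A cell was counted as a WNT5A fibroblast when it had at least 200 detected genes, at least 3 UMIs (unique molecular identifiers, which count captured RNA molecules) of the matrix genes COL1A1, COL1A2, COL3A1, DCN and LUM together with at least 2 of these genes detected, at least 1 UMI of WNT5A, no more than 2 UMIs of the pericyte gene RGS5 and none of the leukocyte gene PTPRC. This rule found 1483 of 72701 kept cells (2.04%). The same rule without WNT5A defined 6567 fibroblast-gated cells, of which 5084 had no WNT5A UMI and are called WNT5A-zero fibroblasts. The 8 genes of the rule chose the cells, so their levels are given only as a description.

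WNT5A encodes a secreted WNT ligand that mostly signals without beta-catenin, through ROR and Frizzled receptors, and shapes tissue growth and polarity. In the gut it is known from PDGFRA-rich fibroblasts that lie directly under the epithelium, where they also secrete bone morphogenetic proteins (BMPs) that restrain stem cells and favour differentiation. Other fibroblasts of the mucosa include the ADAMDEC1-rich cells of the lamina propria and OGN-rich matrix fibroblasts. In the porcine genome assembly Sscrofa11.1, WNT5A lies on chromosome 13 from 37344684 to 37367215 and PDGFRA on chromosome 8 from 40966568 to 41021440.

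The study collected ceca of Large White piglets, labelled male, at birth (d0) and at 1, 7, 14 and 21 days of age (d1, d7, d14 and d21), with 1 library per age. Per its methods the piglets had nothing but their mothers' milk, cells of 5 animals were mixed in each library, and cells were released with EDTA and trypsin, a procedure directed at the epithelium. No genotype or treatment differed between groups. Age cannot be told apart from library, and no test between ages was possible. In order of age, the libraries held 15218, 14142, 10272, 16177 and 16892 kept cells and 83394038, 80196009, 47921183, 91863866 and 69522315 counts. These are more cells than the study analysed after the same minimum of 200 genes, and which barcodes it kept was not used here. Any pair of libraries had between 37 and 79 cell barcodes in common.

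WNT5A fibroblasts were few at birth and at d7 and frequent at d1 and d14. Their number was 8 at d0, 691 at d1, 47 at d7, 621 at d14 and 116 at d21. As a share of kept cells this was 0.0526% at d0 (95% exact Clopper-Pearson interval 0.0227% to 0.104%), 4.89% at d1 (4.54% to 5.25%), 0.458% at d7 (0.336% to 0.608%), 3.84% at d14 (3.55% to 4.15%) and 0.687% at d21 (0.568% to 0.823%). These intervals, like all others below, cover counting error only. The number of all fibroblast-gated cells followed the same order, with 102, 3372, 188, 2055 and 850 cells, so the share of kept cells mostly followed how many fibroblasts each library held.

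Among fibroblast-gated cells the share with WNT5A was 7.84% at d0 (3.45% to 14.9%), 20.5% at d1 (19.1% to 21.9%), 25% at d7 (19.0% to 31.8%), 30.2% at d14 (28.2% to 32.3%) and 13.6% at d21 (11.4% to 16.1%). It was higher at d14 than at d1, and lower at d21 than at d1, by more than these intervals, while the interval of d7 overlapped those of d1 and d14. Detecting 1 UMI depends on depth, and gated cells of d14 were the deepest. Cells were therefore also thinned to 1000 UMIs, leaving out those with fewer, and the rule was applied to the thinned counts. The cells counted thus changed too, with 2353 gated cells at d14 in place of 2055. The shares were then 6.49%, 10.3%, 13.1%, 14.3% and 8.97%. This kept the order of the ages but made the interval of d21 (7.18% to 11.0%) overlap that of d1 (9.18% to 11.5%). Cells with EPCAM and none of the 5 matrix genes, which should lack WNT5A, had a WNT5A UMI in 0.278%, 0.459%, 0.214%, 2.38% and 0.146% of cells, at median depths of 5249, 4612, 4644, 4620 and 3346 UMIs. The 2.38% at d14 was 3 of 126 cells. PTPRC cells reached at most 1.05%, at d14. Every share in gated cells was therefore above that in cells that should lack the gene.

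**Figure D1:**
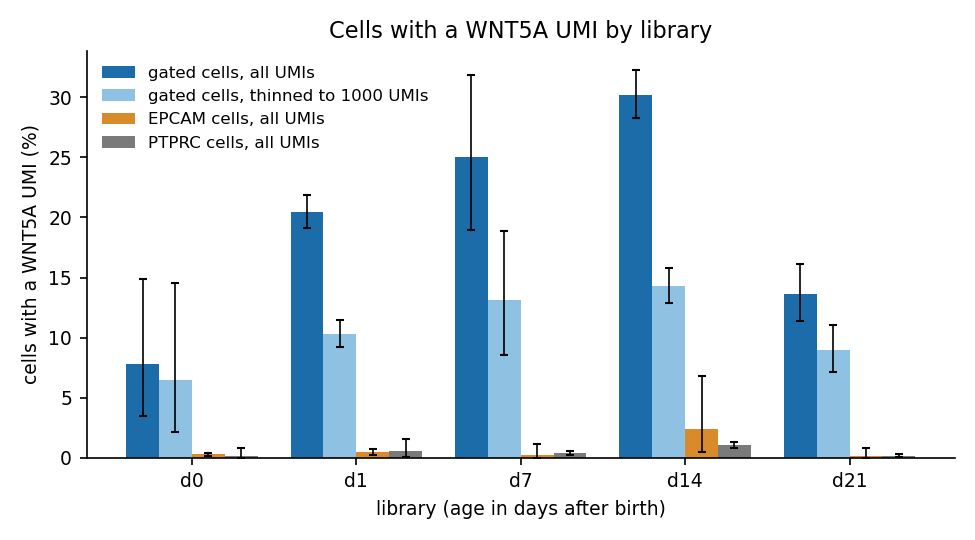
Share of cells with at least 1 WNT5A UMI (percent, vertical axis) in each library, for fibroblast-gated cells with all UMIs, gated cells thinned to 1000 UMIs, and EPCAM or PTPRC cells without the 5 matrix genes; bars are shares and whiskers exact 95% intervals. Gated cells ranged from 7.84% at d0 to 30.2% at d14, and the EPCAM and PTPRC cells stayed at or below 2.38%.

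Most WNT5A fibroblasts lay close to the limit of the rule. Of the 1483 cells, 841 (56.7%) had exactly 1 WNT5A UMI, 239 had 2, 245 had 3 to 5 and 158 (10.7%) had 6 or more, and the highest value was 39 UMIs in a cell of d14. Cells with 6 or more made up 3.04% of the WNT5A fibroblasts of d1, 14.9% of d7, 19.3% of d14 and 8.62% of d21. On the side of the matrix genes, 18 cells had only 3 or 4 UMIs and 92 cells had only 2 of the 5 genes. In all, 2257 kept cells carried a WNT5A UMI, and those outside the rule were 332 with too few matrix UMIs, 98 with RGS5 of 3 or more, 317 with PTPRC and 27 with both. The WNT5A fibroblasts held 4066 of 5932 WNT5A UMIs (68.5%).

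The 4 genes that mark the cells by their label were checked. COL3A1, a fibrillar collagen, and WNT5A were part of the rule. The WNT5A level, that is its summed UMIs per 10000 UMIs of the same cells, was 7.29 at d0, 4.24 at d1, 7.51 at d7, 6.77 at d14 and 9.35 at d21, and COL3A1 stood at 107, 46.3, 60.2, 87.2 and 74.2. PDGFRA, the receptor of platelet-derived growth factor A, and BMP4, a BMP ligand, were not part of it. PDGFRA was detected in 83.2% of WNT5A fibroblasts at d1, 74.5% at d7, 86.0% at d14 and 73.3% at d21 against 42.3%, 53.2%, 57.0% and 35.0% of WNT5A-zero fibroblasts. BMP4 was detected in 76.8%, 72.3%, 86.2% and 75.9% against 46.3%, 65.2%, 70.8% and 49.0%, and with cells thinned to 1000 UMIs its share at d7 was lower in WNT5A fibroblasts (32.6% against 37.6%). PDGFRA and BMP4 were thus detected in most WNT5A fibroblasts of these libraries, and also in many WNT5A-zero fibroblasts.

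Other genes of these cells were compared with WNT5A-zero fibroblasts of the same library. UMIs were summed per library and cell group, and the sums of d1, d7, d14 and d21 were tested with edgeR's quasi-likelihood test with the library as a block. d0 was left out, as it held fewer than 20 cells. Each library is a pool of piglets, so p-values measure the spread of this contrast over 4 libraries of different ages. Of 12356 genes tested, 770 (6.23%) had an adjusted p under 0.05, 375 higher (3.03%) and 395 lower (3.2%) in WNT5A fibroblasts, and 671 of the 770 had the same direction in all 4 libraries. The median log2 fold change of all genes tested was -0.03. WNT5A fibroblasts were deeper than WNT5A-zero cells in every library, with a median of 3026 against 2503 UMIs at d1, 3830 against 2292 at d7, 5354 against 3437 at d14 and 2376 against 1797 at d21. Cells were also thinned to 1000 UMIs, with those of fewer UMIs left out and the others kept in their group. This gave 503 calls, of which 373 were shared with the 770, and 667 of the 770 could be tested there. The mitochondrial share of counts was lower in WNT5A fibroblasts, at 8.63%, 10.2%, 6.07% and 5.44% against 9.71%, 13.5%, 7.05% and 7.26%, and with only cells under 20% mitochondrial counts 718 of 766 calls were shared.

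PDGFRA was higher in WNT5A fibroblasts at every age. Its level was 7.82 at d1, 6.21 at d7, 8.49 at d14 and 11.6 at d21, against 2.43, 3.40, 3.67 and 2.43 in WNT5A-zero fibroblasts. The groups did not overlap, and the log2 fold change was 1.51 ± 0.17 (SE, adjusted p = 0.00017, edgeR). BMP4 had a level of 4.97, 7.42, 7.48 and 6.51 against 2.23, 5.74, 5.95 and 4.99. The difference was smaller (0.55 ± 0.13, adjusted p = 0.023, edgeR) and was largest at d1. It was not past the threshold with DESeq2, with at least 10 matrix UMIs per cell or when d1 was left out.

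Of 27 listed markers of subepithelial fibroblasts, 25 were tested and 20 were higher and 2 lower, with a median log2 fold change of 0.96. Leaving out cells that carried a UMI of another cell type or of pericytes and smooth muscle gave 16 of 24 higher and 1 lower. SOX6, a transcription factor, had a level of 1.88 at d1, 0.881 at d7, 2.43 at d14 and 7.51 at d21 against 0.458, 0.203, 0.137 and 0.213 in WNT5A-zero fibroblasts. It was among the largest differences (3.43 ± 0.40, adjusted p = 0.00023, edgeR), and its levels in the groups did not overlap. EDNRB, an endothelin receptor, stood at 3.69, 3.62, 4.24 and 5.80 against 0.895, 1.01, 1.59 and 1.55 (1.76 ± 0.12, adjusted p = 5.4e-06, edgeR). COL4A5, a chain of basement membrane collagen, differed little at d7, where it stood at 0.278 (6 UMIs) against 0.270, but at 3.55 against 1.05 at d1, 1.98 against 0.282 at d14 and 3.51 against 0.487 at d21 (2.26 ± 0.24). POSTN, a matrix protein, and NRG1, a ligand of ERBB receptors, were also higher (0.87 ± 0.16 and 1.02 ± 0.16). The exceptions were HSD17B2, a steroid dehydrogenase, and AGT, the angiotensin precursor, which were lower (-1.21 ± 0.30 and -0.72 ± 0.18).

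Besides WNT5A, 18 other WNT ligands were listed, of which 7 had enough UMIs to be tested. WNT16, WNT5B and WNT4 were higher and WNT2B lower in WNT5A fibroblasts, and the median of the 7 was 0.67. Without d1 or without d14, 4 ligands were tested, with medians of 1.88 and 1.57. WNT5B, the ligand closest to WNT5A in sequence, stood at 0.535, 0.510, 0.534 and 1.16 at d1, d7, d14 and d21 against 0.152, 0.0676, 0.0845 and 0.0656 in WNT5A-zero cells (2.44 ± 0.26, adjusted p = 0.00011, edgeR). WNT16 stood at 0.299, 0.0927, 0.384 and 1.90 against 0.0870, 0.0676, 0.0447 and 0.0437 (2.85 ± 0.40, adjusted p = 0.00095, edgeR), and its value at d7 rested on 2 UMIs. Both ligands were most abundant at d21. WNT4 was modestly higher (0.67 ± 0.14, adjusted p = 0.01, edgeR), but was not past the threshold in 5 of the 14 other settings with the block, among them thinned cells and at least 2 WNT5A UMIs. WNT2B, a ligand that acts through beta-catenin and is known from gut mesenchyme, stood at 0.0844, 0.324, 0.429 and 0.355 against 0.189, 0.360, 0.684 and 0.744 (-0.83 ± 0.17, adjusted p = 0.0089, edgeR). It was lower in each library, and was not past the threshold without d1.

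WLS, the carrier that WNT proteins need for secretion, was higher in all 4 libraries, at 1.16, 2.78, 1.66 and 1.22 against 0.444, 0.923, 0.636 and 0.689 (1.29 ± 0.13, adjusted p = 8.4e-05, edgeR). Of 14 receptors and co-receptors tested, FZD2 (1.10 ± 0.19), ROR2 (0.97 ± 0.24) and PTK7 (0.50 ± 0.11) were higher and ROR1 (-0.98 ± 0.22) was lower, with a median of -0.04. ROR2 and ROR1 are the 2 receptors of the ROR family and had opposite directions, each on low levels: ROR2 stood at 0.207, 0.232, 0.237 and 0.355 against 0.0879, 0.0676, 0.174 and 0.0929, and ROR1 at 0.0281, 0.0464, 0.158 and 0.290 against 0.0481, 0.158, 0.346 and 0.421. Neither was past the threshold in every alternative. Of 9 secreted WNT modulators tested, SFRP2, SFRP1 and FRZB, which bind WNT proteins outside the cell, were higher. SFRP1 stood at 0.190, 2.55, 2.84 and 4.25 against 0.118, 1.26, 1.98 and 2.18 (0.74 ± 0.12), whereas SFRP2 rested mostly on 29 UMIs at d21 and was at 0 at d7. FRZB had 1 UMI at d7, and was not past the threshold with another scaling (RLE).

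Of 14 tested genes of planar polarity and other beta-catenin-independent WNT signalling, 0 were called by edgeR or DESeq2, with a median of 0.02, and 4 (PRICKLE2, DVL1, NFATC2 and RHOA) had an unadjusted p under 0.05 in edgeR. Of 12 tested targets of the beta-catenin pathway, only ASCL2, a transcription factor of intestinal stem cells, was called, and it was lower (-1.42 ± 0.38, adjusted p = 0.042, edgeR) on 8, 0, 15 and 0 UMIs at d1, d7, d14 and d21. AXIN2, a general target of the pathway, had 15, 1, 17 and 2 UMIs and a log2 fold change of -0.45 ± 0.31. The median of the 12 was -0.48, against -0.03 for all genes.

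BMP and TGF-beta ligands were the signalling list with the highest median in this fit, but not in every setting. WNT ligands had the higher median without d1 (1.88 against 1.36), without d14 (1.57 against 1.16) and with thinned cells (1.31 against 1.25). Of 17 BMP and TGF-beta ligands, 11 were tested, 8 were higher and none lower, with a median of 1.16. With d1, d7, d14 or d21 left out in turn 7 or 8 were higher. BMP7 stood at 0.383 at d1, 3.66 at d7, 1.19 at d14 and 0.419 at d21 against 0.0463, 0.743, 0.201 and 0.0492 (2.66 ± 0.16, adjusted p = 1.4e-06, edgeR). In each library it was higher in WNT5A fibroblasts, although its own level changed from library to library by more than this difference. BMP5 stood at 1.74, 0.834, 1.2 and 1.58 against 0.640, 0.518, 0.480 and 0.426 (1.39 ± 0.14, adjusted p = 8.4e-05, edgeR), and BMP2 at 1.64, 2.32, 1.78 and 1.71 against 1.00, 0.878, 0.723 and 0.519 (1.16 ± 0.16, adjusted p = 0.00066, edgeR). BMP3 (2.07 ± 0.31), INHBA, a subunit of activin (1.85 ± 0.31), TGFB1 (0.77 ± 0.13) and GDF15 were also higher. Of 7 tested BMP antagonists FST, which binds activins, was higher. GREM1, an antagonist known from fibroblasts at the crypt base, had 1 UMI in all WNT5A fibroblasts together. It was rare in WNT5A-zero fibroblasts too, with 2, 0, 21 and 1 UMIs at d1, d7, d14 and d21. Of 11 receptors and targets, ID1, a target of BMP signals, was higher and ID4 lower.

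**Figure D2:**
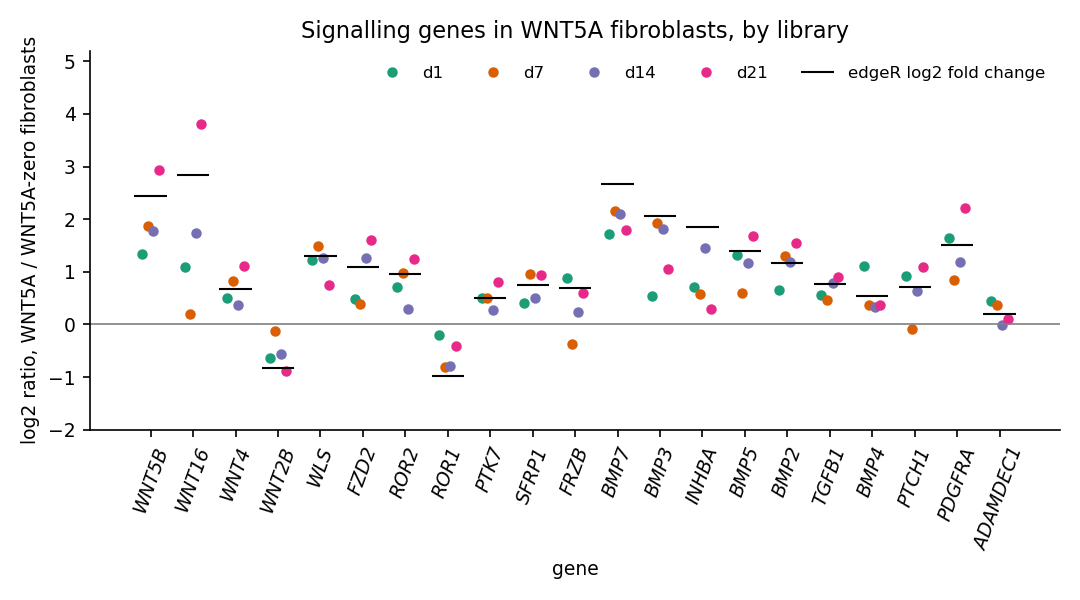
Log2 ratio of the level in WNT5A fibroblasts to that in WNT5A-zero fibroblasts (vertical axis, 0.1 per 10000 added to both levels) for genes of WNT, BMP, TGF-beta and Hedgehog signalling, PDGFRA and ADAMDEC1; points are the 4 libraries and black lines the log2 fold change fitted by edgeR, which has no such addition. WNT5B, WLS, BMP7, BMP5, BMP2 and PDGFRA lay above 0 in every library, and WNT2B and ROR1 below 0. ADAMDEC1 lay above 0 at d1 (0.45) and d7 (0.37) and at -0.02 at d14 and 0.11 at d21.

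PTCH1, a receptor and target of Hedgehog proteins, was higher (0.71 ± 0.15), and the median of 9 tested genes of the Hedgehog pathway was 0.14. PTCH1 stood at 3.91, 2.87, 3.99 and 8.77 against 2.01, 3.04, 2.52 and 4.05, and thus was not higher at d7. It was not past the threshold without d1 or without d21. GLI1, another classical target, had a log2 fold change of 0.45 ± 0.20 (adjusted p = 0.27, edgeR) and HHIP of 0.01 ± 0.12. Among growth factors, 6 of 18 tested were higher and 2 lower. FGF9 showed the largest difference of them (3.09 ± 0.43, adjusted p = 0.0009, edgeR), at 0.109, 0.324, 0.184 and 0.516 against 0.0259, 0.0450, 0.0160 and 0.00547, followed by PDGFD, KITLG, NRG1, GDNF and HGF. ANGPT1, a ligand of the endothelial receptor TIE2, and HBEGF were lower. IGF1 stood at 0.148, 1.90, 6.28 and 3.58 against 0.295, 1.42, 7.46 and 3.97 and was not called. Of 16 cytokines and chemokines, IL7, CSF1 and CXCL14 were higher and CCL2 lower.

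Matrix genes moved in both directions. Of 19 tested collagens other than those of the rule, 8 were higher and 2 lower. Without d1 it was 5 higher and 0 lower, out of 18 tested. COL7A1, which forms the anchoring fibrils under epithelia, stood at 1.35, 2.97, 2.66 and 3.80 against 0.390, 0.946, 0.718 and 0.459 (2.04 ± 0.18, adjusted p = 3.2e-05, edgeR), and COL4A6, a basement membrane chain that pairs with COL4A5, was also higher (2.01 ± 0.20), except at d7, where it had 2 UMIs. COL14A1 and COL15A1 were lower. Of 26 other matrix genes, 10 were higher, among them the basement membrane components LAMA5, LAMB1, LAMC1, LAMA2 and NID1, and 4 lower, namely MGP, TNXB, ELN and FN1. The balance was closer in other settings, with 8 higher and 7 lower in thinned cells and 7 and 6 with at least 10 matrix UMIs per cell. Without d14 it was 6 and 4. Of 18 remodelling genes 9 were higher, including the collagenase MMP1 (1.53 ± 0.34) and the stromelysin MMP3 (2.04 ± 0.20), and ADAMTS1 and ADAMTS5 were lower. Without d14, 5 of the 18 were higher and 3 lower. MMP1 differed little at d1, at 0.109 against 0.0999. The medians of the 3 lists were 0.40, 0.37 and 0.41, and fell to 0.07, 0.07 and 0.19 without cells carrying UMIs of other cell types, pericytes or smooth muscle.

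By size, the 10 largest higher calls whose level was higher in each of the 4 libraries, by however little, were CILP, DIO2, SOX6, SMOC1, ASPN, NEFL, FGF9, DPYSL5, KIAA1324L and KIAA1210. CILP, a matrix protein first known from cartilage, had 1, 4, 163 and 7 UMIs at d1, d7, d14 and d21 and a level of 0.461 against 0.0112 at d14 (5.09 ± 0.48, adjusted p = 5e-05, edgeR). At d1, CILP and DPYSL5 each had 1 UMI in both groups. DIO2, which activates thyroid hormone, had 9, 6, 51 and 32 UMIs (4.25 ± 0.65). ASPN, a small proteoglycan, stood at 2.17, 0.0464, 1.56 and 2.19 against 0.477, 0.0450, 0.0845 and 0.126 (3.14 ± 0.32), and thus did not differ at d7, where it had 1 UMI. NEFL, a neurofilament chain, stood at 0.865, 0.649, 1.97 and 0.773 against 0.217, 0.0450, 0.113 and 0.0273 (3.12 ± 0.35). SMOC1, an extracellular protein that antagonizes BMP signals, was higher by 3.37 ± 0.45. DPYSL5, KIAA1324L and KIAA1210 each had 26 or fewer UMIs in any library.

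Among the 10 largest lower calls were ANGPT2, PCP4, MGP, PYY, PHYHIPL, MT1D, PTPRR, FAM212B and SLITRK2. MGP, an inhibitor of calcification, stood at 0.0492, 0.0927, 0.0622 and 0.193 against 0.346, 0.180, 0.512 and 2.06 (-2.99 ± 0.20, adjusted p = 5.4e-06, edgeR). PCP4, a calmodulin-binding peptide, and ANGPT2, a vascular growth factor, were also lower (-3.08 ± 0.26 and -3.18 ± 0.26). PYY, a hormone of enteroendocrine cells, was at 71 UMIs at d1 and 0 at d7, d14 and d21, and its direction turned to 0.12 with at least 10 matrix UMIs per cell. PHYHIPL had 4 UMIs in WNT5A fibroblasts in all.

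Markers of other cell types moved with this comparison. Of 12 epithelial genes 11 were lower in WNT5A fibroblasts, with a median of -1.32, and their summed level was 34.4, 2.60, 3.34 and 3.38 at d1, d7, d14 and d21 against 49.9, 18.1, 9.47 and 17.2 in WNT5A-zero fibroblasts. KRT19 was the most abundant at d1, at 7.39 against 10.6. At d7, 4 of the 12 were at 0 in WNT5A fibroblasts. Without d1 all 12 were called lower, with a median of -2.38. With at least 10 matrix UMIs per cell, 0 of these genes were called by edgeR, and 5 had an unadjusted p under 0.05. Without cells carrying markers of other types it was 0 of 10, with 2 at an unadjusted p under 0.05, and with thinned cells 1 of 12 was called. EPCAM had a UMI in 44.7% of the WNT5A fibroblasts of d1 but in 2.13%, 1.13% and 2.59% at d7, d14 and d21. Of 7 tested pericyte genes 4 were lower (median -1.59), with summed levels of 1.47, 1.72, 2.14 and 3.00 against 2.01, 1.51, 2.05 and 5.57, so that the sum was not lower at d7 and d14, where the most abundant genes, CSPG4 and MCAM, stood at 0.603 and 0.825. Without d1, 1 of 5 tested pericyte genes was lower. Without cells carrying markers of other types, pericytes or smooth muscle, 2 could be tested, 1 higher and 0 lower (median 0.51). Of 11 smooth muscle genes ACTA2, MYLK and SYNPO2 were lower (median -0.70), with summed levels of 9.37, 23.9, 81.5 and 30.6 against 16.7, 35.3, 91.8 and 50.3, and ACTA2 was most abundant in 2 of the 4 libraries in WNT5A fibroblasts. Without cells carrying markers of other types, pericytes or smooth muscle, ACTA2 was not called and turned to 0.11, and 2 of 6 tested genes were lower, with a median of -0.06. In other settings more of the 11 were lower, with 8 without d14 or without cells carrying markers of other types only, and 7 with thinned cells or at least 10 matrix UMIs per cell. Of 4 tested genes of enteric glia and neurons, 3 were lower. PLVAP, an endothelial gene, was higher (1.93 ± 0.36) while the 7 other tested endothelial genes were lower (ESAM) or not called. Leaving out the cells that carry markers of other types, pericytes or smooth muscle gave 442 calls, of which 303 were among the 770, and 615 of the 770 could be tested there. Beyond this, the part of these cells or their free RNA in the other results was not tested.

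ADAMDEC1, a metalloprotease-like gene, stood at 32.5, 33.6, 91.3 and 26.3 in WNT5A fibroblasts against 23.7, 26.0, 92.4 and 24.4 and was not called (0.20 ± 0.08, adjusted p = 0.22, edgeR). It was detected in 83.2%, 68.1%, 94.2% and 77.6% of WNT5A fibroblasts. Of 8 tested markers of lamina propria fibroblasts APOE was higher, and HAPLN1 and CCL2 were lower, with a median of -0.33. OGN, a proteoglycan that marks matrix fibroblasts, was higher (0.98 ± 0.15, adjusted p = 0.0019, edgeR), at 7.79, 1.21, 4.03 and 7.41 against 3.31, 1.22, 2.21 and 2.89, but not at d7. Of 12 tested markers of matrix and adventitial fibroblasts, OGN and SFRP1 were higher and 10 were not called, with a median of -0.16. Of 12 proliferation genes 0 were called by edgeR or DESeq2, with a median of -0.04, and 0 had an unadjusted p under 0.05. Without cells carrying markers of other types, pericytes or smooth muscle, PCNA and STMN1 were called, out of 11 tested.

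Because WNT5A fibroblasts mostly carried ADAMDEC1 too, cells with WNT5A but no ADAMDEC1 UMI were set against cells with ADAMDEC1 but no WNT5A UMI. These contrasts share WNT5A fibroblasts with the first one, so their values are set side by side and not counted as further support. Only d1, d14 and d21 had at least 20 cells on both sides, with 116, 36 and 26 cells against 1717, 1342 and 460. Of 9812 genes, 168 (1.71%) were called, 104 higher (1.06%) and 64 lower (0.652%). On the WNT5A side 11 of 25 subepithelial markers were higher, with a median of 0.81 against -0.09 for all genes, among them SOX6 (4.41), BMP7 (3.31), WNT5B (2.67) and PDGFRA (1.54), and WNT16 (4.08), ASPN (3.83), BMP3 (2.87) and WLS (1.18) were higher too. Lower in the cells with WNT5A but no ADAMDEC1 UMI were IGF1 (-3.57), WNT2B (-2.33), AGT (-2.31) and the lamina propria markers FBLN1, HAPLN1 and CFD. ADAMDEC1, itself a lamina propria marker, chose both sides. Lower values of such markers are therefore not read as a trait of all WNT5A fibroblasts. Against WNT5A-zero fibroblasts only HAPLN1 and CCL2 of these markers were lower, and IGF1 was not called. JCHAIN, a plasma cell gene, and the endothelial gene PLVAP were also higher on the WNT5A side. All values are log2 fold changes from edgeR. The number of calls ranged from 50 without d21 to 327 without d1. Without d21, 8 of 25 subepithelial markers were higher, with a median of 0.49.

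Cells with WNT5A but no OGN UMI (158, 37, 283 and 35 at d1, d7, d14 and d21) were set against cells with OGN but no WNT5A UMI (1222, 26, 447 and 208), and of 8857 genes 52 (0.587%) were called by edgeR, 35 higher (0.395%) and 17 lower (0.192%). Without d14 it was 15 genes. Of 24 subepithelial markers 7 were higher, but 1 of 24 without d14 and 4 of 25 without d21. BMP7 (2.53), SOX6 (1.71), F3 (1.63), EDNRB (1.10) and NRG1 (0.84) were higher in the WNT5A cells, as were MMP3 (2.87), MMP1 (2.19) and NEFL (2.42), while MGP (-3.52), ELN, HAPLN1 and CCL2 were lower. PDGFRA (0.52, adjusted p = 0.21), WNT5B (0.94, adjusted p = 0.36), ASPN (-0.44, adjusted p = 0.81) and WNT16 (-0.34, adjusted p = 1) were not called in this edgeR fit. OGN was detected in 77.1%, 21.3%, 54.4% and 69.8% of WNT5A fibroblasts at d1, d7, d14 and d21, and this fit left those cells out. It thus does not describe WNT5A fibroblasts as a whole. With cells of both genes kept on the WNT5A side, 2 of 5 tested WNT ligands were higher and 1 lower, against 0 of 4 higher without them. In that setting 403 genes were called against OGN fibroblasts and 374 against ADAMDEC1 fibroblasts. As 14 of 25 subepithelial markers were higher in each, no order of these contrasts is read from their counts.

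WNT5A fibroblasts varied with the number of WNT5A UMIs in the cell. This is a description, since WNT5A chose the cells. At d14, PDGFRA stood at 3.67 in cells with 0, 4.83 with 1, 6.41 with 2, 12.2 with 3 to 5 and 15.5 with 6 or more WNT5A UMIs, and SOX6 at 0.137, 0.413, 2.39, 3.78 and 6.03. BMP7 went from 0.201 to 2.89 and F3, the initiator of blood coagulation, from 0.748 to 3.54 over the same classes. OGN went up as well, from 2.21 to 6.76. At d1 F3 did not follow this order, at 0.453, 0.484, 0.904, 0.640 and 0, the last in 21 cells. At d1 PDGFRA went from 2.43 to 14.5 and SOX6 from 0.458 to 4.72, each class above the one before it. ADAMDEC1 did not follow this order: at d14 it was 92.4 with 0, 112 with 1 and 58.4 with 6 or more. The median depth of the classes at d14 was 3437, 5525, 5615, 3998 and 6214 UMIs, so depth mostly went up with the class too, and its part in these values was not tested. Cells with 1 WNT5A UMI at d14 were in these genes nearer to cells with 0 than to cells with 6 or more.

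**Figure D3:**
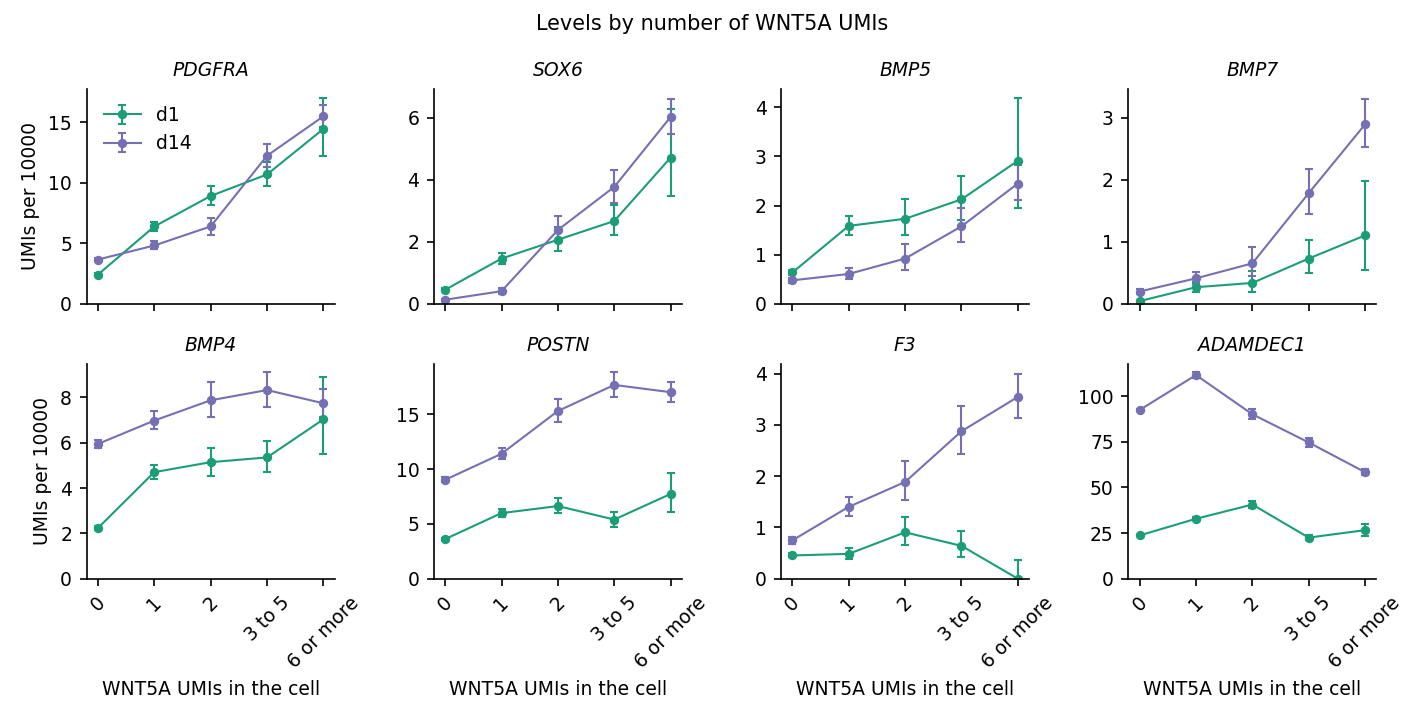
Level of 8 genes (UMIs per 10000, vertical axes from 0) in fibroblast-gated cells grouped by the number of WNT5A UMIs in the cell (horizontal axes), at d1 and d14; whiskers are exact Poisson 95% intervals. PDGFRA, SOX6, BMP5 and BMP7 climbed through all classes at both ages, to 15.5 for PDGFRA at d14, whereas ADAMDEC1 at d14 was lowest, at 58.4, in cells with 6 or more WNT5A UMIs.

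The gated cells were also clustered without the 8 genes of the rule, which gave 17 clusters. WNT5A fibroblasts appeared in every one of them but were concentrated in 2. Cluster 6, with 349 cells led by MEST, SOX6, CILP, MMP3, BMP7, THBD, NEFL, WNT16, SPP1 and MMP1, had a WNT5A UMI in 87.7% of cells (83.8% to 90.9%) and held 20.6% of all WNT5A fibroblasts. Its WNT5A level was 15.8 at d7, 16.5 at d14 and 13.9 at d21, and it held 29.8%, 37.2% and 52.6% of the WNT5A fibroblasts of these libraries. At d1 it had 2 cells. At d7, cluster 12, led by IL11, CRYAB and CXCL8, held the same share, 29.8%, with a WNT5A UMI in 25.9% of its cells. Cluster 2, with 895 cells led by CALCB, ART3, COL4A5, ASPN, CPM, PTN, CXCL10 and GLP2R, had a WNT5A UMI in 49.2% of cells (45.8% to 52.5%) and came to 99.3% from d1, where it held 63.2% of the WNT5A fibroblasts. With 1 library per age, a cluster mostly of 1 library may reflect that library.

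Clusters 6 and 2 had the highest PDGFRA levels of the 17, 18.5 and 13.1, against 5.44 in cluster 0. SOX6 stood at 8.17 and 3.12 against 0.0998, and COL4A5 at 5.67 and 6.56 against 0.160. The same clusters also had the highest OGN levels of the 17, at 8.34 and 13.7 against 3.11, so OGN did not set them apart from OGN-rich fibroblasts. Cluster 0, with 1087 cells led by ALDH1A1, IGF1, FBLN1 and others, came to 79.6% from d14. It had a WNT5A UMI in 21.8% of cells at a WNT5A level of 0.671 and an ADAMDEC1 level of 117, and so held 16.0% of WNT5A fibroblasts. Cluster 5, led by ACTG2, CNN1 and ACTA2, had a WNT5A UMI in 29.3% of cells at a level of 1.03 and a median depth of 6427 UMIs. Clusters 8 and 10, led by PCP4 and MGP, with ANGPT2 among the leading genes of both, had a WNT5A UMI in 1.63% and 0.568% of cells. Cluster 7, which had the epithelial genes TFF3, CLCA1 and KRT8 among its leading genes, and cluster 13, which had the endothelial genes PECAM1 and VWF, had 17.3% and 14.2% at median depths of 12907 and 6492 UMIs.

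**Figure D4:**
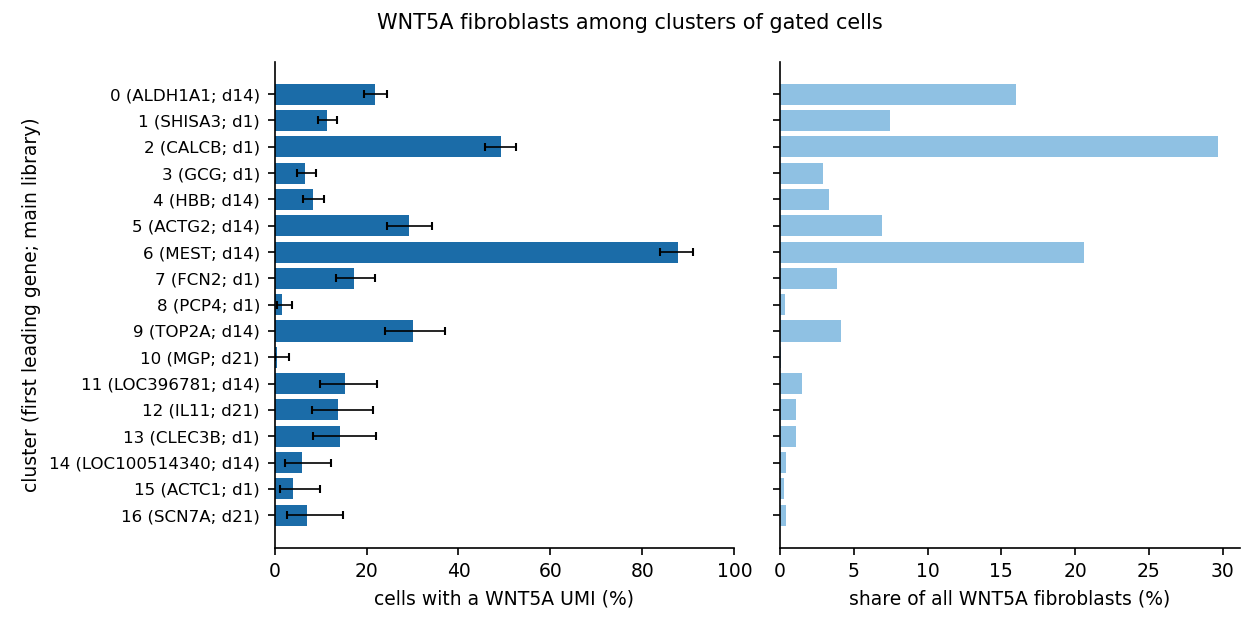
Left, share of cells with a WNT5A UMI (percent, with exact 95% intervals) in 17 clusters of fibroblast-gated cells built without the genes of the rule; right, share of all WNT5A fibroblasts (percent) in each cluster; labels give the first leading gene and the library with most cells. Cluster 6 (87.7%) and cluster 2 (49.2%) stood out on the left and together with cluster 0 held most WNT5A fibroblasts on the right.

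Across ages, values are given for the libraries with at least 50 WNT5A fibroblasts, d1, d14 and d21. Of 1781 genes with a level of at least 1 per 10000 at d1 or d14, 255 (14.3%) were at least 2-fold higher and 163 (9.15%) at least 2-fold lower at d14. Of 1946 genes compared between d14 and d21, 98 (5.04%) were at least 2-fold higher and 58 (2.98%) at least 2-fold lower at d21. The median log2 ratio of the genes was 0.17 and 0.04. These are differences between single libraries without a test. The WNT5A fibroblasts of d1 and d14 also lay in different clusters, with 63.2% of d1 in cluster 2, and 37.2%, 33.0% and 15.9% of d14 in clusters 6, 0 and 5, in none of which d1 had any. The part of this in the differences between ages was not tested.

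Most contractile and remodelling genes, and some matrix genes, were at least 2-fold higher at d14 than at d1. Among the largest differences were MMP1, 0.109 at d1 and 4.02 at d14, MMP3, 0.0352 and 2.54, IGF1, 0.148 and 6.28, ACTA2, 1.75 and 33.3, ACTG2, 0.155 and 4.04, TAGLN, 1.41 and 22.1, and COL14A1, 0.204 and 4.33. WNT5A-zero fibroblasts had values of the same direction, for example 5.35 and 35.9 for ACTA2 and 0.0999 and 1.18 for MMP1. Of 7 smooth muscle genes 6 were at least 2-fold higher at d14, as were 10 of 16 remodelling genes, 6 of 14 collagens, 9 of 19 other matrix genes (with EFEMP1 at least 2-fold lower) and 5 of 18 subepithelial markers, namely BMP7, F3, POSTN, NRG1 and CXCL14. JCHAIN, a plasma cell gene, was at 0.0106 and 4.63, the largest ratio, and it was at 0.0130 and 5.45 in WNT5A-zero fibroblasts.

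Genes of epithelium and of immediate early responses were lower at d14. DISP2 was at 25.7 at d1 and 0.328 at d14, S100G, a calcium-binding protein of enterocytes, at 10.3 and 0.167, and the goblet cell genes TFF3 and CLCA1 at 10.7 and 0.212 and at 3.91 and 0.00848. EPCAM was at 5.57 and 0.124 and PRAP1 at 2.29 and 0.00283. All 9 epithelial genes that reached a level of 1 were at least 2-fold lower, and EPCAM was at 7.67 and 0.791 in WNT5A-zero fibroblasts. ATF3, a stress-induced transcription factor, was at 8.50 and 0.297, and 10 of 13 immediate early and heat shock genes were at least 2-fold lower. Their summed level was 173 at d1 and 62.2 at d14 in WNT5A fibroblasts and 160 and 62.9 in WNT5A-zero fibroblasts. The part of these genes' source in the other differences between ages was not tested.

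From d14 to d21 the contractile genes were lower again, with ACTA2 at 11.4 at d21, and 5 of 7 smooth muscle genes were at least 2-fold lower. In WNT5A-zero fibroblasts ACTA2 was at 35.9 at d14 and 15.7 at d21. Cluster 5 held 15.9% of WNT5A fibroblasts at d14 and 2.59% at d21, and cluster 6 held 37.2% and 52.6%. The part of these shares in the differences between d14 and d21 was not tested. MMP1 was at 4.02 and 0.548, F3 at 2.16 and 0.226, CALCB, a neuropeptide gene, at 1.69 and 0.129, NEFM, a neurofilament chain, at 1.87 and 0.161, and TRH, thyrotropin-releasing hormone, at 1.13 and 0. PAPPA2, a protease that frees insulin-like growth factors, was at 0.0480 and 1.29, while it stayed at 0.0128 and 0.0219 in WNT5A-zero fibroblasts. SOX6 was at 2.43 and 7.51, WNT16 at 0.384 and 1.90 and PTCH1 at 3.99 and 8.77. HBB, a globin, was at 0 and 3.48 and TFF3, APOA1 and RGS1 were the other genes among the 5 with the largest ratio. HBB was at 104 at d7 in WNT5A fibroblasts and at 52.2 in WNT5A-zero fibroblasts of that library.

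**Figure D5:**
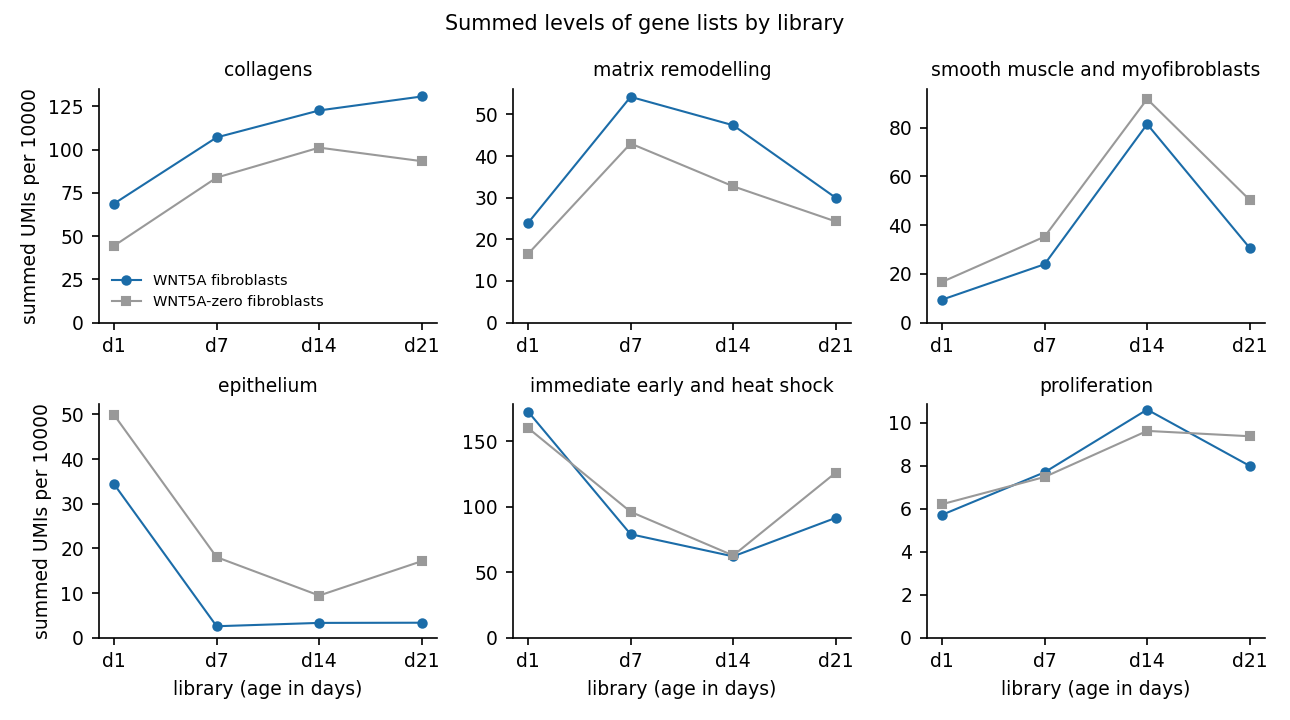
Summed level (UMIs per 10000, vertical axes from 0) of 6 gene lists in WNT5A fibroblasts and WNT5A-zero fibroblasts at d1, d7, d14 and d21; each point is 1 library and no error is drawn. Collagens and remodelling genes were higher in WNT5A fibroblasts in all 4 libraries, smooth muscle genes peaked at d14 at 81.5, and epithelial genes were lower than in WNT5A-zero fibroblasts throughout.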

How the data were processed

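Male piglet cecum was profiled by droplet single-cell RNA-seq with 1 library per age (d0, d1, d7, d14 and d21). The authors deposited UMI counts per gene and barcode, not normalized, made with Cell Ranger 3.1.0 on the porcine assembly Sscrofa11.1 per the labels. The paper and the labels name different kit versions, and the matrices of 20648 genes hold more barcodes than the forced number of cells the paper names. Cells with at least 200 genes were kept, and doublets were not removed. The WNT5A fibroblasts and the gene lists were chosen with earlier results of these data known. A level is the summed UMIs per 10000 of the same cells, and ratios between 2 levels had 0.1 added, which understates the change of low genes. Sums per library and cell group, for libraries with at least 20 cells in each group, were tested with edgeR 4.0.16 (R 4.3.3; TMM, filterByExpr, quasi-likelihood test, library as a block, Benjamini-Hochberg over all genes tested, threshold 0.05), in fits tested on simulated data. The 8 genes of the rule, and ADAMDEC1 or OGN where they defined a group, were not read. Since each library supplied both cell groups, pairing by library came from the same animals. Intervals at 95% are Clopper-Pearson or Poisson intervals from SciPy. Genes named in the text are the given markers, called genes of the lists with up to 4 others of a list, the 10 largest differences in each direction with 1 direction in every library, the largest age differences (8 each way d1 to d14, 5 each way d14 to d21) and leading genes of clusters. Clusters used 1500 variable genes, 20 components, 15 neighbours and Leiden resolution 0.6. Gene positions come from RefSeq for Sscrofa11.1. Some genes these rules choose are not reported here.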

Additional observations from a re-analysis of the deposited data

How the results depend on the processing

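Many calls rest on pairing the 2 cell groups within a library: with no replicate block 0 genes were called by edgeR in each of the 3 comparisons, with 368, 421 and 138 genes at an unadjusted p under 0.05 against WNT5A-zero, ADAMDEC1 and OGN fibroblasts. With the block, the 770 calls against WNT5A-zero fibroblasts became 1310 with no filter on low counts, 456 with DESeq2, 490 with at least 10 matrix UMIs per cell, 503 with thinned cells, and 442 without cells carrying markers of other types, pericytes or smooth muscle (this last setting was chosen after seeing the data). Calls with cells of both genes kept or with at least 500 genes per cell were not planned beforehand either. Nor was the thinned share of kept cells. Leaving out 1 library gave 407 (without d1) to 631 (without d7). The 168 calls against ADAMDEC1 fibroblasts became 278 with no filter, 84 with DESeq2, 374 with cells of both genes kept with the WNT5A fibroblasts, and 50 (without d21) to 327 (without d1) with a library left out. The 52 calls against OGN fibroblasts became 170 with no filter, 403 with cells of both genes kept, and 15 (without d14) to 50 (without d7). Of 52 genes followed, 51 were called, and 37 of these could be tested in all 14 other settings with the block, of which 23 kept their call in each. A further 9 kept it where tested but gave no value in some settings (ANGPT2, CILP, FAM212B, KIAA1210, KIAA1324L, MT1D, PCP4, PHYHIPL and PTPRR). The others lost it in at least 1 such setting: ACTA2, ASCL2, BMP4, DPYSL5, EPCAM, F3, FRZB, INHBA, MMP1, PTCH1, PTK7, PYY, ROR1, ROR2, SFRP1, SFRP2, TGFB1, WNT2B and WNT4. In direction, PYY turned to 0.12 with at least 10 matrix UMIs and ACTA2 to 0.11 without cells carrying other or mural markers. The cause of these changes was not tested. The share of WNT5A fibroblasts among kept cells, 2.04%, was 2.43% with at least 500 genes, 2.56% under 20% mitochondrial counts, 0.883% with at least 2 WNT5A UMIs, 1.90% with at least 10 matrix UMIs, 3.73% without cells with markers of other types, 2.87% also without mural markers and 1.17% thinned. Among gated cells, 22.6%, it was 23.7%, 24.1%, 9.78% and 26.6% under the first 4 of these and 11.6% thinned. With 1 UMI as the limit, depth bears on many memberships, and WNT5A-zero fibroblasts may include cells in which WNT5A was missed. The counts of genes at least 2-fold apart between ages stayed within 1.5 times their value in every setting run.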

Other observations

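Of 13 tested genes of Notch and ephrin signalling, 2 were higher and 1 lower in WNT5A fibroblasts than in WNT5A-zero fibroblasts, with a median log2 fold change of 0.11. DLL1, a Notch ligand, stood at 0.637, 0.973, 0.757 and 0.806 per 10000 at d1, d7, d14 and d21 against 0.251, 1.49, 0.373 and 0.284 (0.93 ± 0.22, adjusted p = 0.024, edgeR), and was thus lower at d7 and higher in the other libraries. EFNB1, an ephrin that binds EPHB receptors, was higher in all 4 libraries (0.57 ± 0.12). NOTCH3, a receptor typical of pericytes, stood at 0.109, 0.0927, 0.124 and 0.387 against 0.417, 0.270, 0.278 and 1.32 (-1.61 ± 0.18, adjusted p = 0.00023, edgeR).

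Of 13 tested immediate early and heat shock genes, IER3 was higher (0.49 ± 0.12) and ZFP36 lower (-0.53 ± 0.14). Among the lists of other cells, APOA1, a lipoprotein of absorptive cells (-1.50 ± 0.30), and C1QA, a complement gene of macrophages (-1.14 ± 0.21), were lower. C1QA stood at 0.232 against 0.709 at d1 and 0.226 against 0.356 at d14. It was not lower at d7 (0.0464 against 0.0450) or d21 (0.0645 against 0.0601).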
